A study of Mus musculus with 12 samples.

Results

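This report concerns 151 protein-coding genes that carried YTHDF1 CLIP peaks in the striatum of saline-treated mice and were not listed for cocaine-treated mice. They were chosen from 1247 genes listed for either treatment. The study's tables list 449 genes for saline and 1049 for cocaine, and 198 of the 449 saline genes (44.1%) were absent from the cocaine table. Of those 198, 21 genes have no symbol and 14 carry symbols of opposite-strand, Rik or predicted Gm transcripts. A further 12 were left out by name (Gria1, Dlg2, Syn2, Gad1, Cacna1b, Cacnb4, Kcnq3, Pecam1, Npas1, Cux2, Usp2 and Dcaf10), and the 151 that remain are called the saline-only genes. The listing in the tables chose these genes, so their levels in saline and their absence from cocaine are a description and were not tested.

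YTHDF1 reads N6-methyladenosine (m6A), the most common methyl mark inside messenger RNA, from the cytoplasm, and bound transcripts are known to be translated more. In CLIP, ultraviolet light links protein to RNA in the tissue, an antibody precipitates the protein, and the RNA held by it is sequenced, so that clusters of reads mark stretches near the protein. In the brain, reading of m6A is known to matter for synaptic proteins and for learning.

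The mice were wild-type C57BL/6J, and the groups were cocaine and saline, with 3 CLIP and 3 input libraries each (12 samples in all). The antibody was a monoclonal against YTHDF1. Dose, duration, age, sex and the number of animals behind a library are not given in these sources. The labels name striatal neurons, although the protocol describes lysis of brain tissue without a sort. The values are counts of CLIP peaks per gene in each CLIP library, and the 3 saline libraries are numbered in column order. Values of the input libraries were not used, and no count is corrected for the abundance of an RNA.

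What absence means is set by the tables' cutoffs. Every gene of the saline table had at least 1 peak in each library and a mean above 1, and every gene of the cocaine table had at least 1 peak in each library and a mean above 6. A saline-only gene may therefore have had up to 6 peaks on average in cocaine, or more with 1 library empty, and no gene here is shown to lack peaks after cocaine. Because the saline-only genes have no cocaine values, no test between treatments was possible for them. The saline libraries held 3789, 3720 and 3944 peaks in listed genes. Depth in reads is unknown. Of 70 marker genes of 8 striatal and neighbouring cell types, 5 were in the saline table and 6 in the cocaine table. The 2 markers that only the saline table lists, Cux2 and Pecam1, are among the symbols left out by name, so the rule itself leaves 0 markers among the saline-only genes. Of 14 markers of striatal projection neurons, 1 (Gnal, a G protein subunit) was listed at all, so the labelled cell type cannot be checked from these tables.

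Few peaks lay in each saline-only gene. The mean per library had a median of 2.33 over the 151 genes (interquartile range 1.67 to 3.50, lowest 1.33, highest 8.0). Over the 122 genes in both tables that pass the same filter on symbols, the median saline mean was 5.67. Together the saline-only genes held 412, 400 and 409 peaks in saline libraries 1, 2 and 3. This is 10.7 ± 0.263% (SD, n = 3) of the saline peaks for 33.6% of the saline genes. In bulk tissue, fewer cells of a type and less RNA per cell cannot be told apart behind any of these counts. The 3 libraries contributed evenly, with 32, 32 and 27 genes highest in library 1, 2 and 3 and 60 genes with a tie.

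The share of saline genes missing from the cocaine table fell with their saline level. The counts that follow are of genes that pass the symbol filter, without those left out by name. Of these, 68 of 74 with a saline mean above 1 and up to 2 peaks were saline-only, as were 39 of 54 up to 3 peaks and 26 of 35 up to 4. Between these last classes the share did not fall, as 27.8% and 25.7% were listed in cocaine. Saline-only genes were 16 of 52 between 4 and 6 peaks, 2 of 15 between 6 and 8, and 0 of 43 above 8. The highest 2 are Vac14 and Hhat, and they are the saline-only genes whose saline mean is above the cocaine table's cutoff of 6. The 32 shared genes of their saline level, above 6 and up to 8 peaks and without the symbol filter, had cocaine means from 7.0 to 125. The median was 30 peaks. These genes were all listed for cocaine and so had means above 6, and their values do not say what Vac14 and Hhat had.

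**Figure D1:**
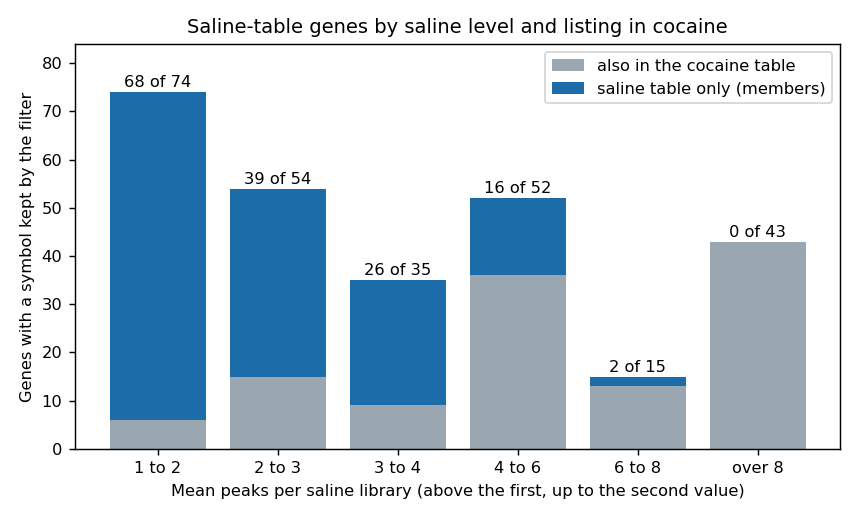
Number of saline-table genes that pass the symbol filter, without those left out by name (vertical axis), by mean peaks per saline library (horizontal axis), divided into genes also in the cocaine table (grey) and saline-only genes (blue). The label over each bar gives saline-only genes of all genes in the bar, from 68 of 74 in the lowest class to 0 of 43 in the highest.

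The rule has a low edge in saline and another edge at the cocaine cutoff. At the low edge, 21 saline-only genes had the smallest total the table allows, 1, 1 and 2 peaks in some order. Just outside the other edge were genes that barely passed the cocaine cutoff. Pnkd had 2, 7 and 4 peaks in saline and 7, 5 and 7 in cocaine. Adgrb3, an adhesion G protein-coupled receptor of synapses, had 5, 2 and 2 peaks in saline and 9, 4 and 7 in cocaine. Ttc28 had 1, 1 and 2 in saline and 1, 5 and 14 in cocaine. The transcription factor gene Atf2 had 4, 7 and 8 in saline and exactly 7 in each cocaine library. The saline means of these genes, from 1.33 (Ttc28) to 6.33 (Atf2), lie within the wide range of the saline-only genes, 1.33 to 8.0. Only Vac14 and Hhat among the saline-only genes had a higher mean than Atf2. Which saline-only genes lie near the cocaine cutoff is unknown, because they have no cocaine values.

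Vac14, the scaffold of the complex that makes the endosomal lipid phosphatidylinositol 3,5-bisphosphate, had the most peaks. It had 8, 6 and 10 peaks in saline libraries 1, 2 and 3, a mean of 8.0 ± 2.0 (SD, n = 3), and lies on chromosome 8 from 110618529 to 110720398 (RefSeq, GRCm38.p6, the assembly also called mm10). All 3 libraries were well above the median gene of the set. Hhat, the acyltransferase that attaches palmitate to Hedgehog proteins, had 8, 4 and 9 peaks (7.0 ± 2.65) and lies on chromosome 1 from 192512825 to 192771219. Krt28, a keratin gene of the hair root sheath, had 6 peaks in each library and lies on chromosome 11 from 99365007 to 99374903. Its span of 9.90 kb holds few bases for that number of peaks, and no other annotated gene overlaps it.

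The next genes had between 5 and 6 peaks on average. Fam163b, a gene of a small membrane protein, had 7, 3 and 7 peaks and lies on chromosome 2 from 27110379 to 27142477. BC107364 on chromosome 3 (96433788 to 96454361) had 7, 5 and 5. Cep350, a centrosomal protein gene on chromosome 1 (155844964 to 155973270), had 7, 4 and 5. Cthrc1, which encodes a secreted protein linked to Wnt signalling, had 5, 6 and 5 peaks over a span of 10.2 kb on chromosome 15 (39076932 to 39087121). Its libraries differed by 1 peak at most. Grip2, a PDZ scaffold that binds AMPA-type glutamate receptors, had 7, 7 and 2 on chromosome 6 (91761452 to 91843954), so library 3 stood below the others. Plekhg1 had 5, 7 and 3. Rgs6, which shortens G protein signals in neurons, had 3, 6 and 6 over a span of 546 kb.

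Some leading genes owed their place to 1 library. Tmtc1, which encodes an O-mannosyltransferase of the endoplasmic reticulum, had 11, 1 and 2 peaks (4.67 ± 5.51), the largest SD of the set. Wdpcp, a planar cell polarity and cilium gene, had 3, 1 and 10 (4.67 ± 4.73). Lims2, a focal adhesion protein gene on chromosome 18 (31922293 to 31958620), had 11, 3 and 3 (5.67 ± 4.62). The high library was library 1 in Tmtc1 and Lims2 and library 3 in Wdpcp. Cntnap5c, of the contactin-associated family, had 2, 1 and 9, and the actin-binding kelch gene Klhl1 had 2, 2 and 8, both high in library 3. For these 5 genes the SD is close to or above the mean, and their order among the leading genes is not settled.

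The other genes with a mean of at least 4 peaks were Entpd4b (3, 7 and 3), Hps3 (4, 3 and 6), Itga9 (3, 6 and 4), Plekhb1 (3, 3 and 7) and Spon1 (6, 1 and 6). They were followed by Fzd3 (4 in each library), Grm8 (2, 5 and 5), Hmgxb3 (3, 3 and 6) and Pdzrn4 (5, 3 and 4). Hps3 is a subunit of a complex for lysosome-related organelles, Itga9 an integrin, Spon1 a secreted axon-guiding protein, Fzd3 a Wnt receptor needed for axon tracts, and Grm8 a presynaptic metabotropic glutamate receptor. In all, 24 of the 151 genes (15.9%) reached a mean of 4.

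**Figure D2:**
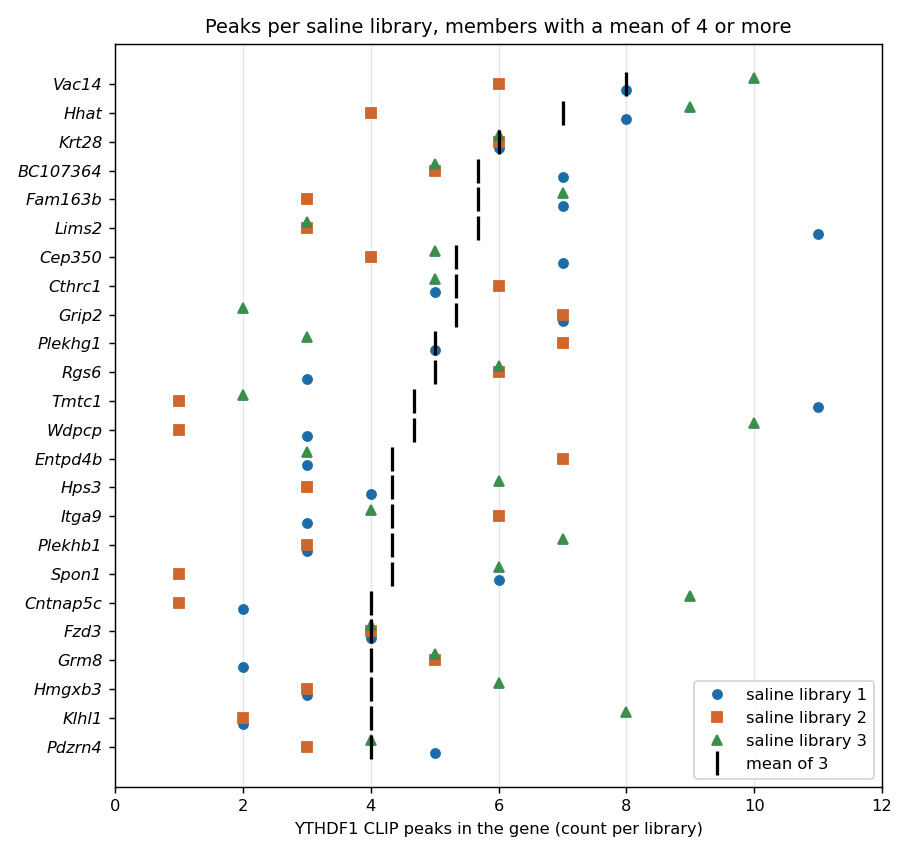
CLIP peaks in each of the 3 saline libraries (coloured symbols) and their mean (black bar) for the 24 saline-only genes with a mean of at least 4 peaks, one gene per row. Krt28 (6, 6 and 6) and Fzd3 (4, 4 and 4) show no spread, while Tmtc1 ranges from 1 to 11 and Wdpcp from 1 to 10.

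Xlr5a, of a multicopy family on the X chromosome, had 2, 5 and 2 peaks. Its promoter window in RefSeq (GRCm38.p6) shares an identical run of 255 bases with that of Xlr5b, which is in neither table. The run includes the first 50 transcribed bases, the only stretch of the transcripts held here. The 60 bases below open that run, upstream of the start site, on the coding strand of both genes, at chrX:73117848-73117907 (minus strand) in Xlr5a and at chrX:73148591-73148650 (plus strand) in Xlr5b, and are shown as an example of the identity of the copies.
Xlr5a: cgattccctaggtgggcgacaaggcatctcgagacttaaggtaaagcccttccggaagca
Xlr5b: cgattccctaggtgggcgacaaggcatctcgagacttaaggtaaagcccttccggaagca
Whether reads of the 2 genes could be told apart was not tested, and the assignment of Xlr5a's peaks is uncertain. Entpd4b, at 69555401 to 69584940 on chromosome 14, has a relative, Entpd4, at 69337151 to 69366742 with a span of 29592 bases against its own 29540. The likeness of their sequences was not tested.

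The m6A consensus core GGACT could be searched only in the first 50 transcribed bases that the promoter windows hold, on the transcribed strand. It was present in 8 of the 128 saline-only genes with a window (6.25%), against 6.78% of all 27025 genes with one. It was found in 2 of the leading genes, Fam163b and Rgs6, and in Defb42, a short beta-defensin gene with a lower mean of 3.33 peaks. These are shown here with the motif in capitals because it is the sequence that YTHDF1's mark is known to favour.
Fam163b, chr2:27142439-27142459, minus strand: cgcgcccgGGACTaggctgga
Rgs6, chr12:82617533-82617548, plus strand: gcagtttgGGACTgtg
Defb42, chr14:63047011-63047031, plus strand: ctctctggGGACTtttccaca
A match is a string of letters, not a methylated site, and the tables do not show whether any peak lies there. The bulk of each transcript, where m6A is mostly known to lie, was not searched.

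Counts this small give wide intervals. Vac14's mean of 8.0 rests on 24 peaks, and its exact 95% Poisson interval runs from 5.13 to 11.9, for counting error only. For Kif1a, with 2, 1 and 1 peaks, the total of 4 peaks gives an interval from 0.363 to 3.41 around the mean of 1.33. Both intervals ignore that a gene is listed only with a peak in each library and a mean above 1. The lower limit for Kif1a lies below that cutoff. Of the 151 genes, 76 (50.3%) had a single peak in at least 1 library, so they were listed with no peak to spare. The share was 10.7% among the 122 shared genes and 16.5% among the 79 of them with a saline mean up to 8. In 20 saline-only genes the 3 libraries were equal, and in 18 the highest library had at least 5 times the lowest. The median coefficient of variation over the 3 libraries was 34.6%, against 34.9% over the shared genes, whose levels are higher. Over the shared genes with a saline mean up to 8 it was 43.3%. At the lowest level the table's floor of 1 peak fixes the spread, since a total of 4 peaks allows only 1, 1 and 2. Across genes, Spearman correlations between pairs of saline libraries were 0.237, 0.298 and 0.446 over the 151 genes and 0.617 to 0.689 over the 122 shared genes. Genes are not independent replicates, and the narrow range of levels among the saline-only genes limits these values.

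Members of 18 of 19 gene lists, made by symbol pattern, were present, and 90 of the 151 genes fell in at least 1 list. No list was tested for enrichment, and a symbol pattern also takes in genes that do something else, which are named below. The patterns miss genes too: the adhesion genes Dscam, Sdk1 and Ntm and the kinase gene Tlk1 fall in no list. Each number below therefore counts matches to a pattern and is not a total for the kind of gene. The shares below compare the saline-only genes with 120 coding genes in both tables, 418 coding genes in the cocaine table only, and all 20117 annotated coding genes that pass the same filter. The choice of genes bears on these counts, because each of the 12 symbols left out by name falls in a list, and 102 of 163 genes would be in a list with them.

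The list of cell adhesion and actin genes had the most matches, with 12 genes (7.95%, against 5.0% of shared, 4.07% of cocaine-only and 2.28% of all coding genes). Besides Lims2, Itga9 and Cntnap5c, they include Cadm2, a synaptic adhesion gene with 4, 3 and 2 peaks, and Nrcam, Cntn3 and Cntnap3, which encode adhesion proteins of axons. Ephb1 and Sema3c are axon guidance genes, and Itgam is an integrin of myeloid cells with 2 peaks in each library. The pattern also took in Plekhg1 and Plekhb1, which are no adhesion genes. The median of the 12 saline means was 2.5 peaks, against 2.33 over all saline-only genes.

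Regulators of small GTPases, the switches that control actin and vesicle traffic, numbered 10 genes (6.62%, against 7.50% of shared, 1.67% of cocaine-only and 2.32% of all coding genes). Plekhg1 led them. Srgap3, a Rac GTPase-activating protein of dendritic spines, had 2, 3 and 3 peaks. Arhgdig had 2, 2 and 3 peaks. The others were Rab31, Arhgap42, Arhgap12, Rabgap1l, Fgd1 and Prex1, with means from 1.33 to 2.33, and Rgs6, which acts on heterotrimeric G proteins and is no small GTPase regulator.

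Genes of phosphoinositides and vesicle traffic numbered 7 (4.64%, against 3.33% of shared, 3.11% of cocaine-only and 2.65% of all coding genes), with Vac14 and Hps3 ahead. Zfyve9, an endosomal adaptor of TGF-beta receptors, had 2, 4 and 2 peaks. Amph, which encodes amphiphysin of synaptic vesicle endocytosis, had 1, 5 and 1, with library 2 above the others. Ctse, Atp6v0e and Sorcs1 had means from 1.67 to 2.0.

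Synaptic genes numbered 6 (3.97%, against 8.33% of shared, 3.11% of cocaine-only and 1.35% of all coding genes). Beside Fam163b, Grip2 and Cntnap5c, Dlg5 of the membrane-associated guanylate kinase family had 4, 4 and 3 peaks. Cntnap3 and Grin2c, an NMDA receptor subunit gene, had means of 1.67 and 1.33. With Gria1, Dlg2, Syn2 and Gad1, which the rule leaves out, the list would hold 10 of 163 genes (6.13%). Fam163b was placed in this list with its saline level known, so its membership is no independent evidence, and its synaptic role is not established here.

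Among channel genes, 4 matched the pattern (2.65%, against 2.5% of shared, 2.87% of cocaine-only and 1.97% of all coding genes), of which Grip2 is no channel. The rule leaves out 4 more matches by name, Cacna1b, Cacnb4, Gria1 and Kcnq3, with which the list would hold 8 of 163 genes (4.91%). Trpm3, a heat-activated cation channel, had 2, 5 and 2 peaks, and Cacna1i, a T-type calcium channel, had 2, 2 and 1. Grin2c had 2, 1 and 1. The list of G protein-coupled receptors and cyclic nucleotide signalling (3.97%, against 5.0% of shared, 3.59% of cocaine-only and 2.29% of all coding genes) held Grm8 and the phosphodiesterase genes Pde11a (3, 3 and 2) and Pde1c (4, 2 and 2), which break down cyclic nucleotides. Its pattern also took in Galnt17, a glycosyltransferase gene, Ptgfrn and the centrosomal gene Tacc2, which are not of that kind. Hedgehog, Wnt and other growth signalling (1.99%, against 6.67% of shared, 2.39% of cocaine-only and 1.41% of all coding genes) was represented by Hhat, Fzd3 and Lrp2, an endocytic receptor with 3, 3 and 4 peaks.

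Kinase and phosphatase genes numbered 6 (3.97%, against 2.5% of shared, 3.11% of cocaine-only and 2.76% of all coding genes). Ppm1h, a phosphatase that acts on Rab proteins, had 5, 3 and 3 peaks. Prkch and Prkca, both protein kinase C genes, had 2, 2 and 2 and 2, 2 and 1. Mylk3, a myosin light chain kinase of heart muscle, had 3, 1 and 3, Hipk2 had 2 in each library and Ptprm had 1, 2 and 2. These genes all stayed at 5 peaks or fewer in every library.

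Transcription and chromatin genes numbered 8 (5.30%, against 4.17% of shared, 4.31% of cocaine-only and 6.82% of all coding genes), and would number 10 of 163 (6.13%) with Npas1 and Cux2. Hmgxb3 led, followed by Zfp710 (5, 1 and 5), Ell (3, 4 and 2), an elongation factor of RNA polymerase II, and Rfx4, a brain-enriched factor, with 3 in each library. Polr1b, Sox13, Hoxa3 and Gata3 had means from 1.33 to 2.0. RNA processing and translation genes numbered 5 (3.31%, against 2.5% of shared, 2.63% of cocaine-only and 4.15% of all coding genes). Celf2, a splicing regulator of neurons, had 1, 5 and 3, and Eif2b1, a subunit of the translation initiation exchange factor, had 3, 1 and 3. Tnrc6b, a scaffold of miRNA silencing, had 2, 2 and 1, and the glycyl-tRNA synthetase gene Gars had 1, 1 and 2. Zc3hc1, the remaining match, is a nuclear basket gene with a zinc finger.

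Ubiquitin pathway genes numbered 5 (3.31%, against 3.33% of shared, 3.35% of cocaine-only and 3.43% of all coding genes). With Usp2 and Dcaf10, which the rule leaves out, they would number 7 of 163 (4.29%). Klhl1 led them. Rnf19a had 3 in each library, Usp46, a deubiquitinase, 1, 4 and 3, Fbxl7 1, 1 and 5, and Ube2e2 2 in each. Of the DNA repair and cell cycle genes, 4 were present (2.65%, against 1.52% of all coding genes). Fanci (5, 3 and 3) and Fancd2 (2 in each library) encode the partners of the Fanconi anaemia clamp, and Cdca7l (2, 3 and 2) and Cenpu (2, 3 and 1) are cell cycle genes. None of the 120 shared coding genes was in that list, against 15 of the 418 in the cocaine table only.

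Solute carriers and related transporters numbered 5 (3.31%, against 0.833% of shared, 3.35% of cocaine-only and 2.57% of all coding genes): Slc4a8 (2, 1 and 6), a bicarbonate transporter of neurons, Slc39a11 (1, 5 and 1), Slc9a9 (2, 3 and 2), Mfsd4b1 (2 in each) and Slc25a13. Metabolic genes numbered 6 (3.97%, against 2.5% of shared, 4.07% of cocaine-only and 4.49% of all coding genes), among them Adh5 (3, 4 and 4), Galnt17 (4, 4 and 3), Gstcd (3, 4 and 1) and Lipc (2, 3 and 3). Centrosome and cilium genes (2.65%, against 5.0% of shared, 2.87% of cocaine-only and 1.29% of all coding genes) were Cep350, Wdpcp, Ttc27 (1, 6 and 2) and Cep63 (3, 2 and 1), and Ttc27 matched by its repeat name alone. Kif1a, the kinesin of synaptic vesicle precursors, was the 1 match to the microtubule pattern. Immune genes were Defb42, Itgam and Btn1a1 (2, 1 and 1), and epithelial genes Krt28 and Upk3bl (1, 3 and 1). No olfactory, vomeronasal or taste receptor gene was among the 151, where 7.49% of all coding genes are of that kind. The share was 0% of shared and 0.478% of cocaine-only genes, so this absence is not particular to the saline-only genes.

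**Figure D3:**
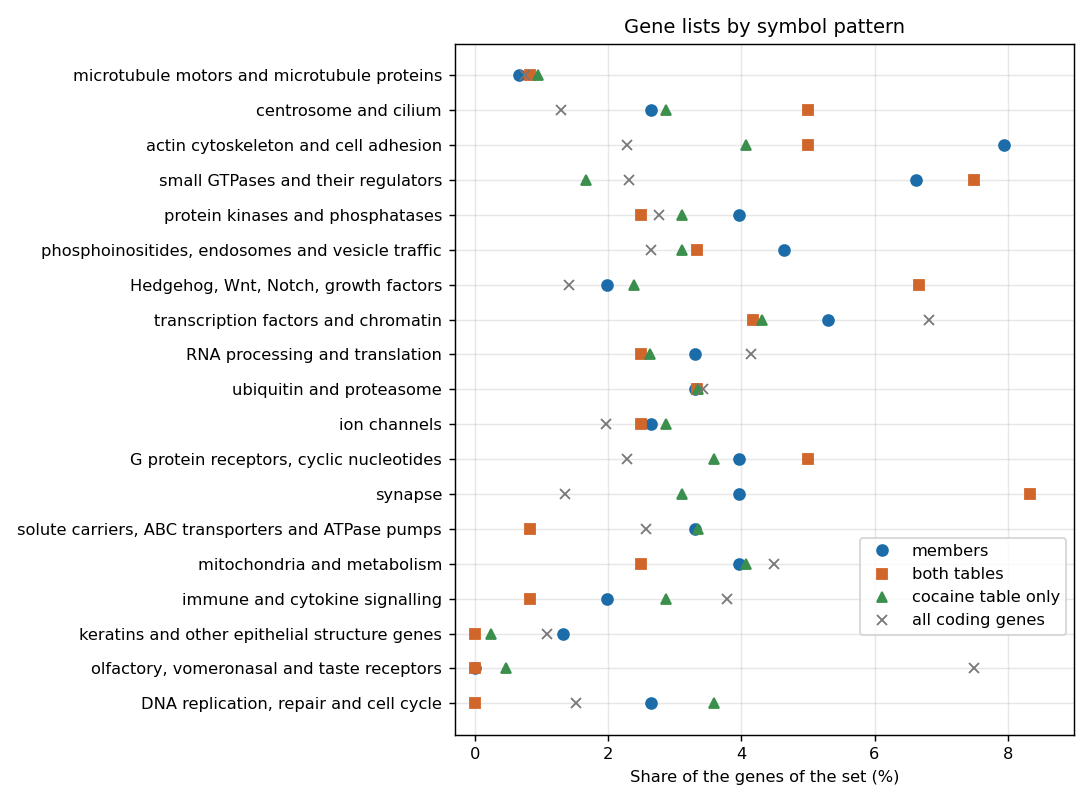
Share of each set of coding genes (horizontal axis, percent) that falls in each of 19 gene lists (rows) for the 151 saline-only genes (members, circles), 120 genes in both tables (squares), 418 genes in the cocaine table only (triangles) and all 20117 coding genes (crosses). The adhesion list has the highest share of saline-only genes, 7.95%, and the olfactory list has 0.

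The saline-only genes were long. Their median span was 112 kb (interquartile range 39.7 to 268), against 98.0 kb for shared coding genes, 44.0 kb for coding genes in the cocaine table only and 18.3 kb for all coding genes. Spans over 100 kb were found in 80 of 151 (53.0%), against 48.3% of shared and 11.8% of all coding genes. Spans over 500 kb were found in 19 (12.6%), against 19.2% of shared and 1.11% of all coding genes. Among shared coding genes with a saline mean up to 8, 24.4% were over 500 kb. Ccser1 was the longest at 1203 kb, with 2, 2 and 4 peaks. The next longest were Dcc (1098 kb), the netrin receptor gene, with 1, 5 and 1 peaks, and Lrmda (1037 kb), a melanocyte differentiation gene, with 2, 2 and 3. They were followed by 3 neuronal adhesion genes, Sdk1 (974 kb) with 2, 1 and 1 peaks, Ntm (969 kb) with 4, 4 and 3, and Cadm2 (966 kb) with 4, 3 and 2. The Spearman correlation of span and mean peaks was 0.148 over the 151 genes, given as a description of genes that share the same libraries.

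**Figure D4:**
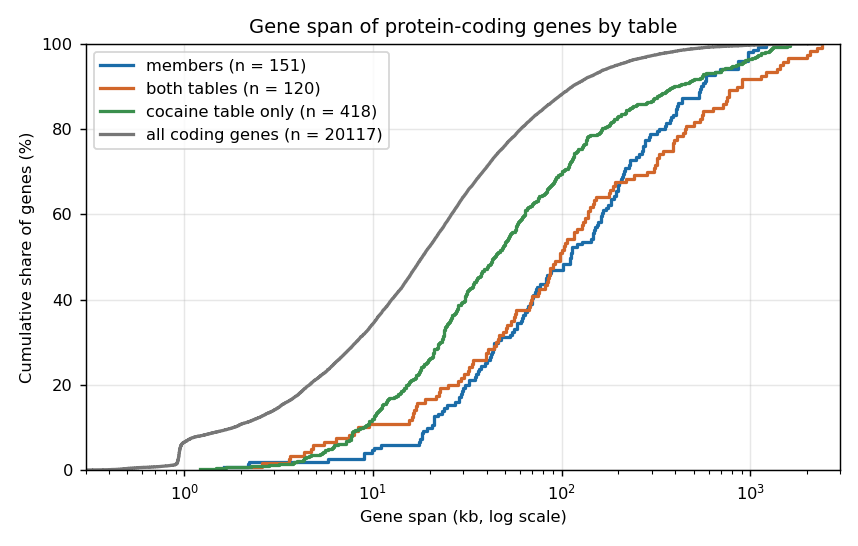
Cumulative share of protein-coding genes (vertical axis, percent) by gene span (horizontal axis, kb, log scale) for saline-only genes (members, blue), genes in both tables (orange), genes in the cocaine table only (green) and all coding genes (grey). The blue and orange curves lie together near medians of 112 and 98.0 kb, to the right of the green (44.0 kb) and grey (18.3 kb) curves.

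A few short genes carried peaks at high density. Defb42, 1.62 kb long on chromosome 14, had 4, 3 and 3 peaks, or 2.06 peaks per kb. Arhgdig with 2.17 kb reached 1.08 peaks per kb, Dxo, an RNA decapping enzyme gene, 0.760, Krt28 0.606 and Cthrc1 0.523. Over all saline-only genes the median was 2.13 peaks per 100 kb, against 8.13 over the shared coding genes. This density is built from the saline mean, whose median was 2.33 over the saline-only and 5.67 over the 122 shared genes. Density was not compared at a matched saline level. The spans include introns, and the tables do not say where in a gene a peak lies.

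The position of the saline-only genes differed from that of the cocaine-listed genes in how often another coding gene overlapped them. This held for 27 of the 151 (17.9%, exact 95% binomial interval 12.1 to 24.9), close to 17.2% of all coding genes. It held for 52 of 120 shared coding genes (43.3%, interval 34.3 to 52.7) and for 216 of 418 in the cocaine table only (51.7%, interval 46.8 to 56.6). These intervals cover counting error only, and genes are not independent. Among shared genes with no more than 8 saline peaks, the range of the saline-only genes, the share was 46.2% (36 of 78). Among genes over 100 kb it was 10% of the saline-only genes (8 of 80), 48.3% of the shared genes (28 of 58), 41.4% in the cocaine table only (53 of 128) and 17.5% of all coding genes. From 30 to 100 kb it was 32.6% (14 of 43) of the saline-only genes and 38.9% (14 of 36) of the shared genes. It was 54.5% (12 of 22) of the shared genes with no more than 8 saline peaks in that class. There it was 56.8% in the cocaine table only and 18.3% of all coding genes. Under 30 kb the shares were, in the same order, 17.9% (5 of 28), 38.5% (10 of 26), 38.9% (7 of 18), 55.8% and 16.8%. The saline-only share was thus above that of all coding genes from 30 to 100 kb and below it over 100 kb. With noncoding genes counted as well, 104 of the 151 (68.9%) overlapped another annotated gene. On that measure the shares were 81.7% of shared, 80.6% of cocaine-only and 40.7% of all coding genes, so the saline-only genes stood well above all coding genes. These differences were not tested, and the part in them of the unequal cutoffs of the tables was not tested either.

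**Figure D5:**
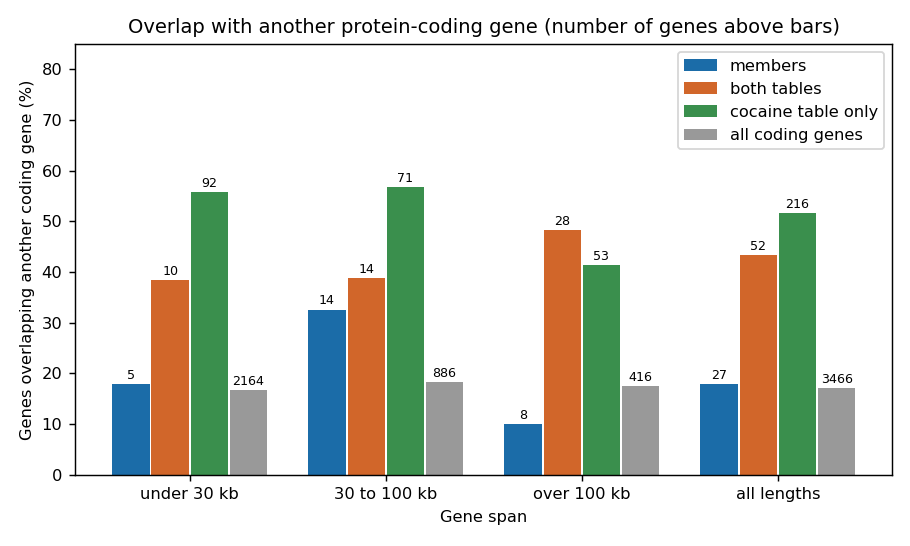
Share of coding genes (vertical axis, percent) whose span overlaps that of another coding gene by at least 1 base, by span class (horizontal axis), for saline-only genes (members), genes in both tables, genes in the cocaine table only and all coding genes. Numbers over the bars are genes with an overlap; over all lengths they are 27 of 151, 52 of 120, 216 of 418 and 3466 of 20117.

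Most of the overlaps with a coding gene run on opposite strands. At least 1 partner on the opposite strand was annotated for 19 saline-only genes (12.6%), 34 shared genes (28.3%) and 157 genes in the cocaine table only (37.6%), against 10.3% of all coding genes, where the strand of both partners was given. The coding overlaps of the saline-only genes were small: 7 of 151 (4.64%) were overlapped over at least 10% of their span by 1 coding gene, against 26.7% and 26.6% in the shared and cocaine-only sets. Among these 7, Hps3 overlaps the ceruloplasmin gene Cp over 35% of its span, Fyb2 the complement gene C8a over 22.7%, and Lims2 the receptor gene Gpr17 over 19%. Patl2 overlaps Trim69 and B2m over 27.7% and 8.17%. Peaks counted for these genes cannot be separated from peaks of their partners, because the tables give neither strand nor position. By symbol, the saline table lists no coding gene that overlaps a saline-only gene, and these 5 partners are in neither table.

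Overlap with a named gene of the cocaine table was found for 2 of the 151, Slc39a11 with Cog1 over 1023 bases and Hdgfl2 with Plin4 over 19 bases. This is 1.32%, against 2.39% of all coding genes, 20% of the shared genes and 10% of those in the cocaine table only. The rule bears on this contrast, since a gene whose peaks are not separated from those of a cocaine-listed partner could be listed for cocaine itself. The size of that part was not tested. Cog1 and Plin4 each had a mean of 6.67 peaks in cocaine, with SD 2.31 and 3.51. Genes without a symbol have no position here and could not enter this count.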

How the data were processed

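The authors counted YTHDF1 CLIP peaks per gene. The deposited values are these counts, whole numbers, for 3 libraries per treatment, beside the authors' mean of the 3, a signal value used only to check the columns. Alignment with STAR to mm10 after cutadapt is named, without versions, per the submitters' processing notes. The peak caller's settings, the use of input and how a peak was given to a gene are unstated. A table's treatment was read from the letter c or s in its name.

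Repeated lines of 1 gene were merged (463 lines gave 449 saline genes, 1084 gave 1049 cocaine genes). Saline-only genes were those whose Ensembl identifier is not in the cocaine table, with a symbol, without os, Rik or Gm symbols and without 12 symbols named in the rule. All 151 matched RefSeq (GRCm38.p6) by symbol. Coordinates and overlaps come from it, and strands from its promoter table for 128 genes. The members and lists were chosen with earlier results of these data known.

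No count model was run, because the genes have no cocaine values. Nothing states that separate animals stand behind the libraries, so SDs may be technical. Genes are named if their mean reaches 4 peaks, if they are among the first 4 of a list, have 1 of the 3 largest SDs, overlap a cocaine gene, or have the longest or shortest span; others were named after their values were seen. Alternatives were other cutoffs, memberships and overlaps, and leaving out each library. Tools were Python 3.11.15 with SciPy 1.17.1, NumPy 2.4.6 and pandas 2.3.3.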

Additional observations from a re-analysis of the deposited data

How the results depend on the processing

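The number of saline-only genes was 163 with the symbols the rule leaves out and 172 with genes without a symbol. Without 1 saline library it was 137 to 144. The first 2 alternatives only add genes to the 151, and leaving out a library could only remove some. These counts therefore do not show how stable the set is. With a saline mean above 2 peaks it was 83, with a median of 3.33 peaks, 7.69% of saline peaks, 50 genes in lists and 1 overlap with a cocaine-listed gene. Above 6 peaks, the cutoff of the cocaine table, 2 genes were left, with a median of 7.50 and 0.391% of peaks. Without 1 library the median ranged from 2.0 to 2.50 and the share of peaks from 10.2 to 10.6%, and the share was 11.8% with the left-out symbols and 12.2% with genes without a symbol. Asking for overlap over at least 50% of the gene left 0 genes overlapping a cocaine-listed gene. The median span was 151 kb above 2 peaks. Overlap with a coding gene, whose alternatives were chosen after seeing the data, was 19.3% above 2 peaks, 17.2% with the left-out symbols and 4.64% over at least 10% of the span. Each change follows from which genes or libraries the alternative keeps.

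No paired analysis was possible because the columns carry no replicate number and the genes have values in 1 treatment only. Small counts limit the order of genes, and depth in reads is unknown.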

Other observations

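Some saline-only genes encode proteins known to work together, a grouping made after the values were seen. Adam10, the sheddase that releases the ectodomains of many neuronal surface proteins, had 2, 3 and 1 peaks in saline libraries 1, 2 and 3. Tspan5 (1, 4 and 5) and Tspan14 (1, 2 and 1) encode tetraspanins known to carry it to the cell surface. Apart from this group, Dscam, an adhesion gene of neuronal self-avoidance, had 3, 2 and 4 peaks. None of these genes overlaps another coding gene, as is true of most saline-only genes (27 of the 151 have such an overlap). Their absence from the cocaine table is the rule that chose them.

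Adam10 lies 17.9 kb from Lipc, the closest pair among the saline-only genes. In all, 6 pairs lie within 500 kb of each other and no pair overlaps. The genes were spread over every autosome and the X chromosome, with most on chromosome 6 (13 genes, 8.61%, against 5.30% of all coding genes) and 2 on the X chromosome.

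Genes of the saline table alone that the rule leaves out had similar levels. The 21 without a symbol had a median saline mean of 2.67 peaks (1.33 to 6.33), the 14 with os, Rik or Gm symbols 2.17 (1.33 to 4.0), and the 12 left out by name 2.83 (1.33 to 7.33).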
